A study of Homo sapiens with 6 samples.

Results

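Genes annotated to the cell cycle, to cell division or to the mitotic cell cycle were followed in AGS cells after exposure to SSD (saikosaponin-D, a plant triterpenoid saponin). AGS is a long-established line from a human gastric adenocarcinoma. They were taken as the genes of the deposited expression table whose gene ontology annotation holds at least 1 of these 3 terms, leaving out MYC, PIM1 and the genes that the table places in the ribosome biogenesis, spliceosome, endocytosis, lysosome and autophagy pathways. This gave 36 of the 1099 genes of the table. The cell cycle term holds 14 of them, the cell division term 21 and the mitotic cell cycle term 8, with some genes under more than 1 term. The study compared 3 libraries of AGS cells given vehicle with 3 libraries of AGS cells given SSD for 24 h, all labelled wild type. The labels give 10 µM for the treatment and the study's methods a lower dose, so the dose is not settled, and the protocol fields of the labels name another cell line and a code name for the compound. The column headers of the deposited table name AGS and, for the treated libraries, carry a 10 without a unit. The vehicle of these libraries is not named in the sources used here, and beyond a general statement on independent experiments nothing says that the 3 libraries of a group came from separate cultures, so p-values measure the spread between these libraries, which may be technical.

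Progress through the cell cycle is driven by cyclins, which switch on the cyclin-dependent kinases (CDKs). D-type cyclins act before DNA synthesis, licensing factors such as CDC6 prepare the origins of replication, and B-type cyclins act at mitosis. Kinetochores then attach the chromosomes to the spindle, the spindle checkpoint delays their separation until all are attached, and a ubiquitin ligase, the anaphase-promoting complex, ends mitosis before the cell is cut apart at cytokinesis. Many genes of these steps are transcribed periodically, through promoter elements bound by E2F factors, by the CCAAT-binding factor NF-Y and, at the cell cycle homology region, by the MuvB complex.

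The 36 genes could be matched for 27 to a RefSeq promoter window (GRCh38.p14, 250 bases before to 50 bases after the start of transcription). The other 9 are AHCTF1, CCND1, CEP250, LRRCC1, NOLC1, NSUN2, TLK1, TUBGCP4 and UBE2C. Stretches of 250 bases before the start are shown for 5 genes because they carry these elements in genes described below, namely CKS2 and CDC6 among the genes that fell under SSD, CENPF and CIT among those that rose, and CDC25A among those that did not pass the test. Each reads 5′ to 3′ towards the start on the strand of the gene, and capitals mark CCAAT, the cell cycle homology region and the E2F site, whose letters follow.
CKS2, chr9:89310945-89311194, plus strand: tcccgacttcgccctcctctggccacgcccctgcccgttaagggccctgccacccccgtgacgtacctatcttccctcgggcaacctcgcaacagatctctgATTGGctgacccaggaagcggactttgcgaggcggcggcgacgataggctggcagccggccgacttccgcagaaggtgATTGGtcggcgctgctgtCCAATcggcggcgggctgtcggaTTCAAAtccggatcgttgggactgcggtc
CDC6, chr17:40287629-40287878, plus strand: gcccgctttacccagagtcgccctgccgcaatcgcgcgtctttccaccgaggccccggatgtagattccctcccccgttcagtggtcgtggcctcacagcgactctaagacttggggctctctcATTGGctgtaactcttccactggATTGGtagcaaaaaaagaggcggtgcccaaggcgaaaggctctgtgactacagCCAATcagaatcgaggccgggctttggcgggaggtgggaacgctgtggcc
CENPF, chr1:214602945-214603194, plus strand: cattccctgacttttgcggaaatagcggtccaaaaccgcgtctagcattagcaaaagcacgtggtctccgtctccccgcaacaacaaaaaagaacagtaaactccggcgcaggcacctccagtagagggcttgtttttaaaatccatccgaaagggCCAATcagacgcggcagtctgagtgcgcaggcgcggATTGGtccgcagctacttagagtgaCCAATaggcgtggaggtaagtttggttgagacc
CIT, chr12:119877321-119877570, minus strand: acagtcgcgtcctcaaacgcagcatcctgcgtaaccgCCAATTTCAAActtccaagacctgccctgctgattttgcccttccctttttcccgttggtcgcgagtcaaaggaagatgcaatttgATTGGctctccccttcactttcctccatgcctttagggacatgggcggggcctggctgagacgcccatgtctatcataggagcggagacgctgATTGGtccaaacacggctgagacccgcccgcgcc
CDC25A, chr3:48188418-48188667, minus strand: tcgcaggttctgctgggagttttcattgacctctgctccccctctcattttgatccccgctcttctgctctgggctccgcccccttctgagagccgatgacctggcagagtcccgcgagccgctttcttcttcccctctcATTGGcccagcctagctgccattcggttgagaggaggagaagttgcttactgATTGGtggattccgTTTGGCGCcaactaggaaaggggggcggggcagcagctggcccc

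The letters CCAAT, searched on both strands (ATTGG on the other), stood in the windows of 16 of the 27 genes (59.3%), against 39.7% of 27305 genes with a RefSeq window and 42% of the 872 genes of the table with one. The cell cycle homology region, searched as TTTGAA or TTCGAA on both strands, stood in 7 of 27 (25.9%), against 19.5% of all genes and 16.3% of the table. In CKS2 it lies downstream of 3 CCAAT matches, and in CIT 1 match directly follows a CCAAT match. The windows of CKS1B, PRC1, MAD2L1, CENPF and RPS3 hold it too, in CENPF and MAD2L1 after the start and thus outside the printed stretch. An E2F site was searched as TTTCCCGC, TTTCGCGC, TTTGCCGC or TTTGGCGC on both strands. It stood in 4 of 27 (14.8%), those of CDC6, CDC25A, MIS12 and UHRF1, against 3.99% of all genes and 7.11% of the table. The match in CDC6 begins at base 7 after the start. Letters close to these, such as TTTGGCGG in the printed stretch of CDC6, were not searched. The E-box CACGTG, which reads the same on both strands and is bound by basic helix-loop-helix factors, stood in 7 of 27 (25.9%), those of AHR, CCNG2, CENPF, RBBP4, RCBTB1, RCC1 and TXLNG, against 8.77% of all genes and 15.4% of the table. Of the 7 genes that rose and have a window, 3 held CCAAT, 2 the cell cycle homology region, 0 an E2F site and 3 the E-box. Of the 4 that fell, the numbers were 2, 1, 1 and 0, too few for a comparison of the directions. These matches describe the sequences and were not set against binding.

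For every gene the table gives 2 values per library, the estimated number of reads and the TPM, a read share that is corrected for gene length and thus comparable between genes. The 1099 genes held 30.1% to 33.1% of each library's TPM, with 3084337 to 4640114 counts per library, which are part of a library and not its depth. They are the genes of smallest p among the 11289 that the authors tested between the same groups, so every gene here had already been chosen for a difference between vehicle and SSD. Fold changes are of SSD over vehicle and come from the counts, scaled to the whole library, and a change was called where the quasi-likelihood test of edgeR, with Benjamini-Hochberg adjustment for 11289 genes, gave an adjusted p under 0.05. Of 19 genes listed for gastric epithelial lines, 3 stand in the table, TFF1, KRT13 and KRT81. Only TFF1 is read here as a gastric marker. In every vehicle library the 3 genes were present, at 70.0 to 81.5, 23.7 to 29.3 and 23.7 to 24.7 TPM, and they were called lower under SSD. Of prostate markers 1 of 11 stands there (SLC45A3, at 8.23 to 10.3 TPM under vehicle and 6.97 to 7.82 TPM under SSD), of fibroblast markers 1 of 9 (COL1A1, at 12.8 to 15.8 and 10.0 to 14.9 TPM) and of blood and endothelial markers 0 of 10, but absence from a table of selected genes says nothing about the cells.

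Under SSD, 10 of the 36 cell cycle and cell division genes rose, 6 fell and 20 did not pass the test. Of all genes in the table, 33.8% rose, 19.4% fell and 53.1% did either. The genes that fell included the cyclins CCND1 and CCNB3, the licensing factor CDC6 and the CDK subunit CKS2, and those that rose included cyclin G2 (CCNG2), the kinetochore protein CENPF, the cytokinesis kinase CIT and the centrosome protein CEP250. Changes in counts were small, between 0.486-fold for CCNB3 and 1.47-fold for MARVELD1. In counts CCNB3 alone moved by at least 1.5-fold, 0 of the 36 genes passing that limit upwards (3.46% of the table) and 1 downwards (3.73%). In mean TPM, MARVELD1 (1.57-fold) and CEP250 (1.52-fold) also passed it upwards, and CCNB3 stood at 0.56-fold. The shares of 27.8% higher and 16.7% lower among the 36 genes are near the background and are not a result about these genes as a set. On the TMM scale, which takes most genes as unchanged, 10 of the 36 rose and 3 fell (CCNB3, CCND1 and PLK2), beside 35.0% and 7.92% of the table. Leaving out vehicle replicate 2 left 4 of the 36 higher and 3 lower (171 and 78 of all genes in the table). Leaving out vehicle replicate 3 left 5 and 2 (229 and 94), and leaving out SSD replicate 2 left 4 and 2 (186 and 79). With all 6 libraries the table counted 371 and 213, so calls were lost throughout the table. With any library left out, CCNG2, CIT, CEP250 and MARVELD1 stayed higher and CCNB3 and CCND1 lower, while the other 10 calls were lost without at least 1 library.

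**Figure D1:**
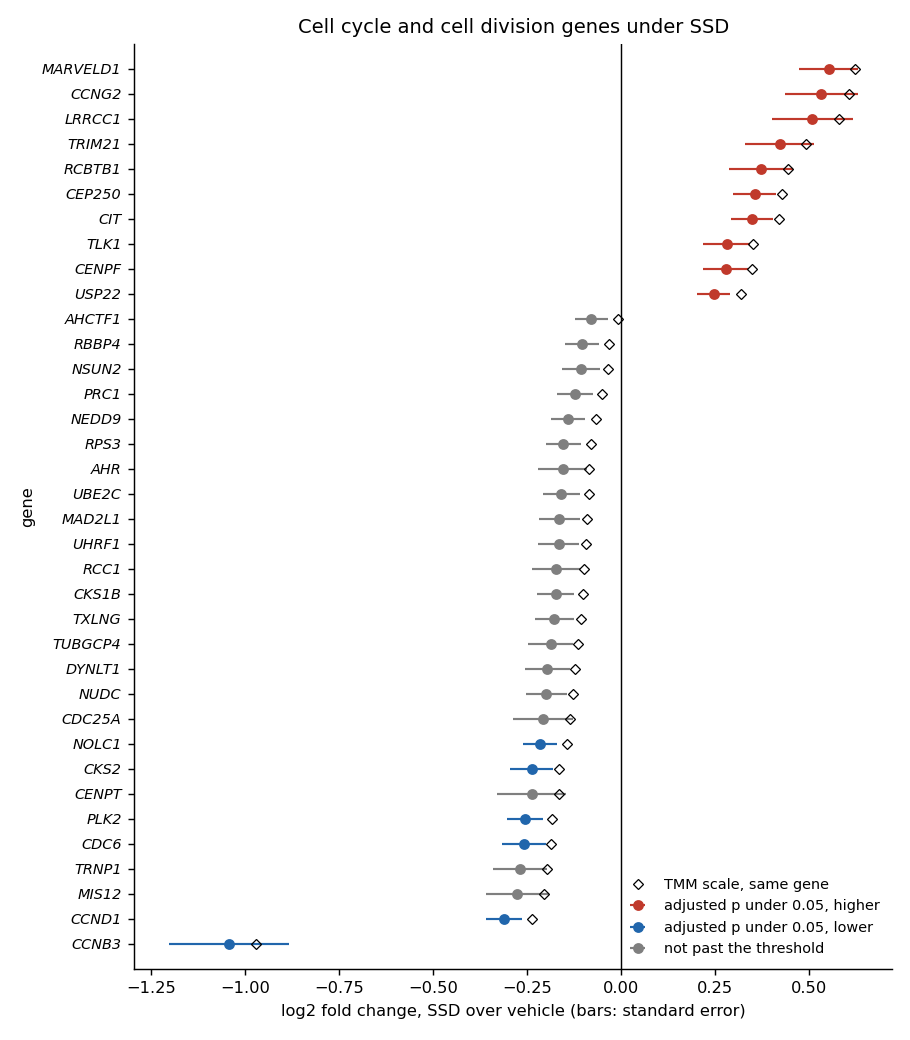
Log2 fold change of SSD over vehicle for each of the 36 genes on the whole-library scale (filled points, bars are the standard error of the fit to 3 vehicle and 3 SSD libraries), with the value on the TMM scale as open diamonds. The 10 genes above 0 all passed the test and 6 of the 26 below 0 did, beside 371 of 387 and 213 of 712 in the whole table. The diamonds lie to the right of the points by a median of 0.07 over the table.

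All 10 estimates above 0 passed the test, and the other 26 lay below 0, from -1.04 (CCNB3) to -0.08 (AHCTF1). Of the 1099 genes of the table, 387 lay above 0, of which 371 passed, and 712 below 0, of which 213 passed. Most genes above 0 thus passed in the table too, and this is no trait of the 36 genes. On this scale the genes of the table nearest to 0 stood at -0.03 below it and 0.21 above it, so its 2 sides do not start at the same distance. The median log2 fold change was -0.16 over the 36 genes and -0.14 over the table (-0.09 and -0.06 on the TMM scale). In each library taken alone, the median of the 36 genes against the vehicle mean was -0.02, -0.005 and 0.02 in the vehicle libraries and -0.12, -0.15 and -0.14 in the SSD libraries. The SSD libraries lay below the vehicle libraries, as they did over the whole table, where they stood at -0.14, -0.13 and -0.09. In TPM, the groups did not overlap in 27 of the 36 genes, with SSD above vehicle in 10 (32.2% of the table) and below it in 17 (44.2% of the table). A gene without overlap has an exact two-sided permutation p of 0.1, the smallest that 3 libraries against 3 allow. Together the 36 genes summed to 6804, 6803 and 6702 TPM under vehicle, against 6153, 6015 and 6011 TPM under SSD. The sum without the ribosomal protein gene RPS3 was 4182, 4226 and 4275 TPM under vehicle, against 3916, 3829 and 3781 TPM under SSD. The whole table also fell, from 33.1%, 32.8% and 32.3% of a library's TPM under vehicle to 31.1%, 30.1% and 30.4% under SSD. In such bulk libraries fewer cells in a phase of the cycle and less RNA per cell cannot be told apart.

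Among the 6 cyclins, CDK activators and CDK partners, 3 fell (2 on the TMM scale), 1 rose and 2 did not pass the test. Like the counts of the other role groups that follow, this stands beside 19.4% lower and 33.8% higher in the table, and with so few genes a group nothing about a group is read from it. CCND1 (cyclin D1), the cyclin that carries growth signals into the cycle, was the most abundant gene that passed the test. Its level was 413, 418 and 450 TPM under vehicle, against 351, 336 and 333 TPM under SSD. The groups did not overlap, and CCND1 fell by 0.31 on the log2 scale (SE 0.0486, adjusted p = 0.00497), a call kept in all 16 alternative analyses. CCNB3 (cyclin B3), a B-type cyclin known mainly from meiosis, was expressed at a far lower level. It stood at 7.74, 9.03 and 14.3 TPM under vehicle and at 3.08, 7.98 and 6.34 TPM under SSD, so that SSD replicate 2 lay above vehicle replicate 1. In counts scaled to the whole library (CPM), it stood at 11.8, 10.9 and 14.2 under vehicle and at 5.46, 6.43 and 5.98 under SSD, with no overlap. On these counts, on average 107 per library, CCNB3 fell by 1.04 on the log2 scale (SE 0.160, adjusted p = 0.00475), but limma's test on TPM gave an adjusted p of 0.410 for it.

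CKS2, a small subunit that binds CDKs and whose promoter is printed above, stood at 324, 297 and 285 TPM under vehicle and at 264, 272 and 258 TPM under SSD. All SSD libraries were below all vehicle libraries, and the log2 fold change was -0.24 (SE 0.0570, adjusted p = 0.0339). This was the called gene nearest to the threshold, and its call was lost on the TMM scale (-0.17, adjusted p = 0.255) and without any 1 of 5 libraries, SSD replicate 3 being the exception. Its paralog CKS1B, which also serves the ubiquitin ligase that destroys CDK inhibitors, was more abundant, with 791, 812 and 779 TPM under vehicle against 766, 704 and 686 TPM under SSD. CKS1B had a log2 fold change of -0.17 (SE 0.0490, adjusted p = 0.0786) and did not pass the test, and it has 6 pseudogene copies in the annotation that could share its reads. CDC25A, the phosphatase that activates CDKs, stood at 16.8, 19.2 and 19.5 TPM under vehicle and at 14.3, 18.7 and 15.7 TPM under SSD, with groups that overlapped in TPM and not in scaled counts, and an adjusted p of 0.307.

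CCNG2 (cyclin G2), an unusual cyclin that is linked to growth arrest rather than to progress, went the other way. It stood at 23.5, 18.3 and 20.2 TPM under vehicle and at 27.0, 28.2 and 29.6 TPM under SSD. Every SSD library was above every vehicle library, and CCNG2 was 1.45-fold higher (log2 fold change 0.53, SE 0.0964, adjusted p = 0.00881). The gene lies on chromosome 4 and has an E-box in the RefSeq window. Its call was kept in all alternatives but limma's test on TPM (adjusted p = 0.0643 with a pseudocount of 1).

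**Figure D2:**
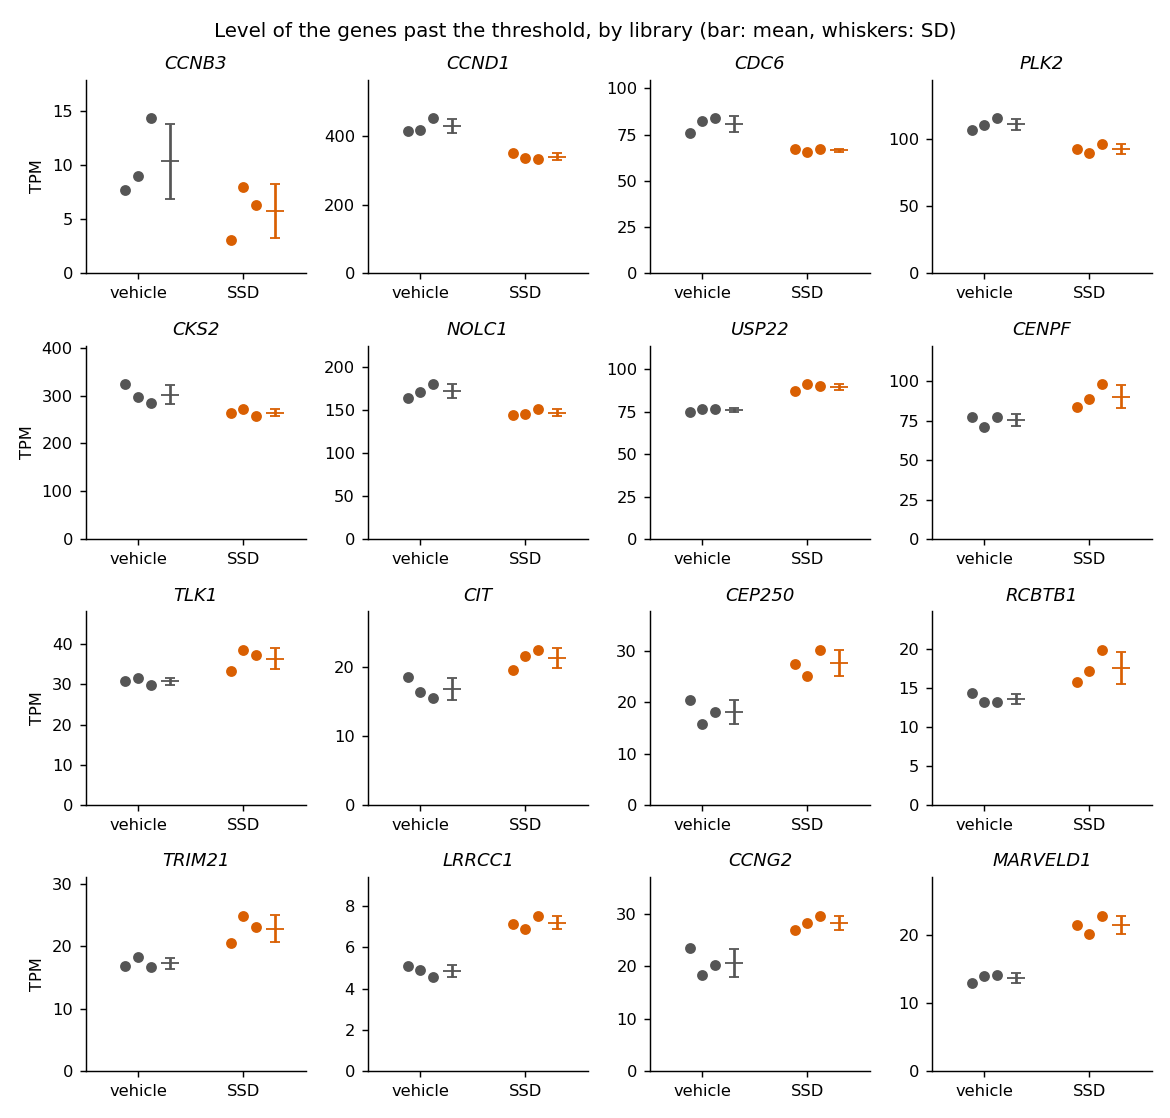
TPM of the 16 genes that passed the test, each point 1 library (3 vehicle in grey, 3 SSD in orange), with the mean as a bar and the SD as whiskers, on axes that start at 0. The groups overlap in CCNB3 alone; CCND1 lies at 413 to 450 TPM under vehicle against 333 to 351 TPM under SSD, and MARVELD1 at 12.9 to 14.2 and 20.3 to 22.9 TPM.

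Of the 5 genes of replication and chromatin, TLK1 and USP22 rose, CDC6 fell, and UHRF1 and RBBP4 did not pass the test. CDC6, which loads the replicative helicase onto origins, stood at 75.9, 82.6 and 83.8 TPM under vehicle and at 67.1, 65.5 and 67.1 TPM under SSD. The groups did not overlap and the log2 fold change was -0.26 (SE 0.0579, adjusted p = 0.0235). On the TMM scale it was -0.19 with an adjusted p of 0.177, and the call was also lost without SSD replicate 2, vehicle replicate 2 or vehicle replicate 3. TLK1, a kinase that acts on histone chaperones during DNA synthesis, stood at 30.8, 31.6 and 30.0 TPM under vehicle and at 33.4, 38.5 and 37.4 TPM under SSD (log2 fold change 0.28, SE 0.0619, adjusted p = 0.0219), a call lost without SSD replicate 2 or any 1 vehicle library. USP22, a deubiquitinase of the SAGA coactivator, had the smallest rise of the genes called higher. It stood at 74.8, 76.5 and 76.5 TPM under vehicle and at 87.4, 91.1 and 90.2 TPM under SSD, 2 tight groups (log2 fold change 0.25, SE 0.0441, adjusted p = 0.00869), and its call was lost without vehicle replicate 2 or SSD replicate 2. UHRF1, which keeps DNA methylation through replication, and RBBP4, a histone-binding subunit of several chromatin complexes, had log2 fold changes of -0.17 and -0.10, and in both the SSD libraries lay below the vehicle libraries in TPM.

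Of the 6 genes of the kinetochore and the spindle checkpoint, CENPF rose and the other 5 had estimates below 0 that did not pass the test. CENPF, a large protein of the kinetochore corona that is made late in the cycle, stood at 77.1, 70.9 and 77.5 TPM under vehicle and at 83.5, 88.7 and 97.9 TPM under SSD. All SSD libraries lay above all vehicle libraries, and the log2 fold change was 0.28 (SE 0.0591, adjusted p = 0.0180), with the call lost without SSD replicate 2, vehicle replicate 2 or vehicle replicate 3. MIS12, of the complex that joins the centromere to the outer kinetochore, stood at 34.0, 34.2 and 39.3 TPM under vehicle and at 25.9, 27.6 and 32.9 TPM under SSD. These groups did not overlap either, but the spread was wide and the log2 fold change of -0.28 (SE 0.0838) had an adjusted p of 0.114. CENPT, which links the centromere to the microtubule-binding NDC80 complex, had a log2 fold change of -0.24 (adjusted p = 0.312). UBE2C, the ubiquitin-conjugating enzyme of the anaphase-promoting complex, was the third most abundant of the 36 genes. It stood at 621, 626 and 618 TPM under vehicle and at 604, 572 and 528 TPM under SSD, with a log2 fold change of -0.16 (SE 0.0505, adjusted p = 0.144). MAD2L1, the checkpoint protein that holds the anaphase-promoting complex back, had groups that overlapped in TPM and not in scaled counts (adjusted p = 0.172). AHCTF1, a nucleoporin that binds chromatin at the end of mitosis, had groups that overlapped in both (adjusted p = 1).

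Of the 8 genes of the centrosome, the spindle and cytokinesis, LRRCC1, CEP250 and CIT rose (37.5%, near the 33.8% of the table) and 0 fell (19.4% of the table). PLK2, a kinase of centriole duplication that fell, was counted with the remaining genes below, so these counts depend on the grouping. CIT (citron kinase), which acts at the midbody during the last step of cytokinesis, stood at 18.7, 16.5 and 15.6 TPM under vehicle and at 19.7, 21.7 and 22.5 TPM under SSD (log2 fold change 0.35, SE 0.0560, adjusted p = 0.00554). CEP250, the linker that ties the centrioles together until mitosis, stood at 20.5, 15.8 and 18.1 TPM under vehicle and at 27.6, 25.2 and 30.2 TPM under SSD. In both genes every SSD library lay above every vehicle library. CEP250 was 1.28-fold higher in counts (log2 fold change 0.36, SE 0.0569, adjusted p = 0.00550) and 1.52-fold higher in mean TPM, and its call was kept in all 16 alternatives. LRRCC1, a centriolar protein, had the lowest level of the 36 genes, at 5.11, 4.91 and 4.55 TPM under vehicle and at 7.13, 6.90 and 7.52 TPM under SSD. The groups stood well apart, and LRRCC1 was 1.42-fold higher (log2 fold change 0.51, SE 0.108, adjusted p = 0.0180), a call that needed each of SSD replicate 2, vehicle replicate 2 and vehicle replicate 3. The other 5 had log2 fold changes from -0.20 to -0.12. They were NUDC, a dynein cofactor (adjusted p = 0.0679), DYNLT1, a dynein light chain (adjusted p = 0.118), TUBGCP4 of the gamma-tubulin ring (adjusted p = 0.148), RCC1, the exchange factor that marks chromosomes with active Ran (adjusted p = 0.278), and PRC1, which bundles the midzone microtubules (adjusted p = 0.351).

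**Figure D3:**
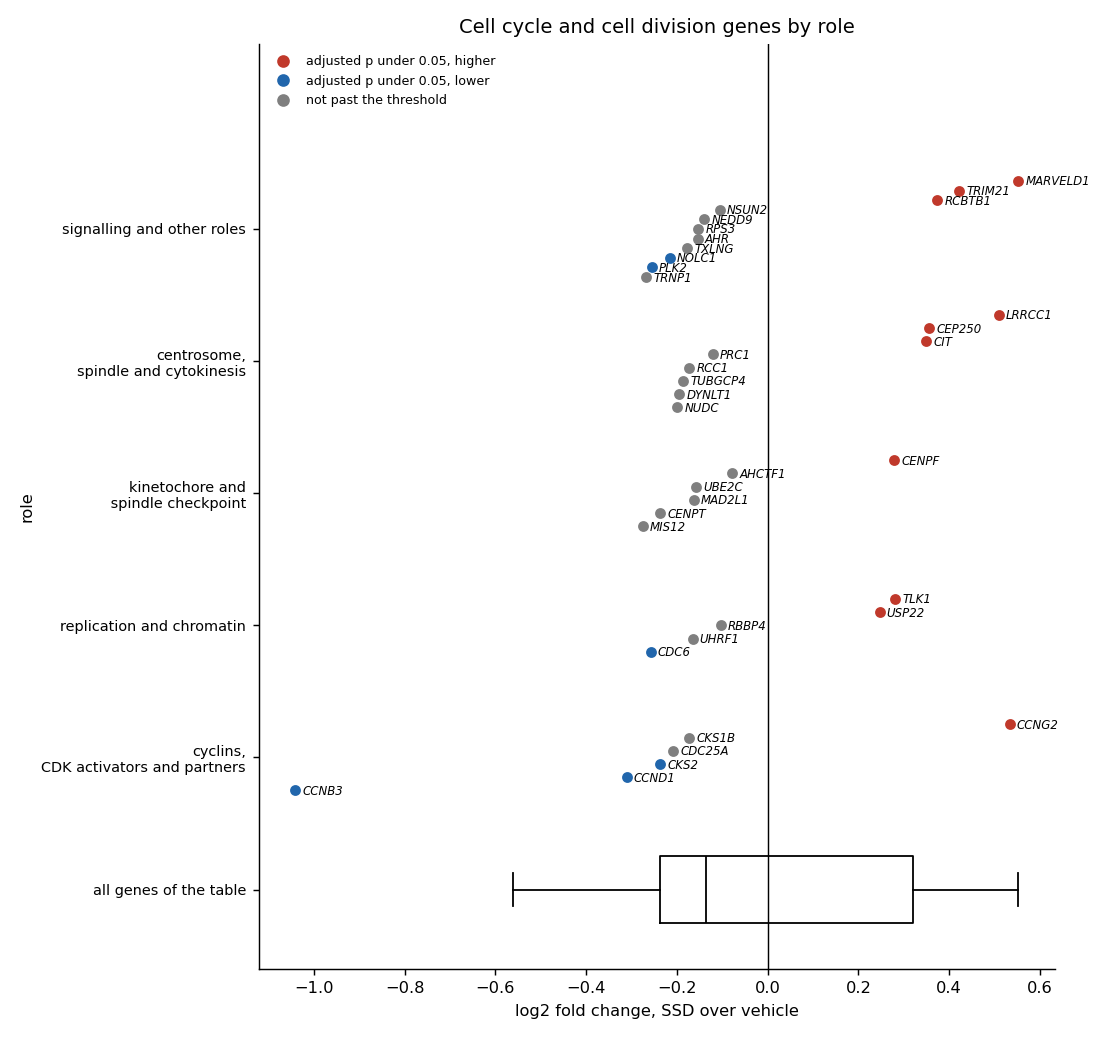
Log2 fold change of SSD over vehicle for the 36 genes, arranged by role, each point 1 gene from the fit to 3 vehicle and 3 SSD libraries. The box below gives the quartiles and the whiskers the 5th and 95th percentiles of all 1099 genes. Each role group holds genes below 0 and at least 1 gene above 0, and the difference between the groups was not tested.

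The remaining 11 genes have roles in signalling or act in division beside another function, and 3 of them rose and 2 fell. MARVELD1, a membrane protein annotated to the cell cycle, rose most of the 36 genes. It stood at 12.9, 13.96 and 14.2 TPM under vehicle and at 21.5, 20.3 and 22.9 TPM under SSD, 1.57-fold higher in mean TPM. In counts MARVELD1 was 1.47-fold higher (log2 fold change 0.55, SE 0.0779, adjusted p = 0.00354), a call kept in all 16 alternatives. TRIM21, a ubiquitin ligase and cytosolic antibody receptor, stood at 16.8, 18.2 and 16.7 TPM under vehicle and at 20.5, 24.8 and 23.1 TPM under SSD (log2 fold change 0.42, SE 0.0916, adjusted p = 0.0202). RCBTB1, a protein with repeats like those of RCC1, stood at 14.4, 13.2 and 13.2 TPM under vehicle and at 15.9, 17.2 and 19.9 TPM under SSD (log2 fold change 0.37, SE 0.0845, adjusted p = 0.0248). In these 3 genes every SSD library was above every vehicle library, but the calls of TRIM21 and RCBTB1 were lost without SSD replicate 2, vehicle replicate 2 or vehicle replicate 3, and that of TRIM21 also without vehicle replicate 1.

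PLK2, a polo-like kinase of centriole duplication that is also induced by stress, stood at 107, 110 and 115 TPM under vehicle and at 92.2, 89.3 and 96.4 TPM under SSD. It fell by 0.26 on the log2 scale (SE 0.0485, adjusted p = 0.0106), also on the TMM scale (-0.18, adjusted p = 0.0358). NOLC1, a nucleolar phosphoprotein of ribosome production, stood at 164, 171 and 180 TPM under vehicle and at 144, 145 and 151 TPM under SSD. Its log2 fold change was -0.22 (SE 0.0452, adjusted p = 0.0167), and -0.14 with an adjusted p of 0.108 on the TMM scale. In both genes all SSD libraries lay below all vehicle libraries, but both calls were lost without vehicle replicate 3 or SSD replicate 2, and that of NOLC1 without vehicle replicate 2. RPS3, a protein of the small ribosomal subunit, was the most abundant of the 36 genes, at 2622, 2577 and 2427 TPM under vehicle against 2236, 2186 and 2230 TPM under SSD. Its groups did not overlap, but the log2 fold change in counts was -0.15 (SE 0.0461) and did not pass the test (adjusted p = 0.108). TRNP1, a nuclear protein of neural progenitor division, was the gene nearest above the threshold, at 30.9, 29.2 and 28.7 TPM under vehicle against 26.3, 22.9 and 25.8 TPM under SSD (log2 fold change -0.27, SE 0.0726, adjusted p = 0.0639). The last 4 are TXLNG, a taxilin, NEDD9, a focal adhesion scaffold, AHR, the aryl hydrocarbon receptor, and NSUN2, an RNA methyltransferase. Their log2 fold changes lay between -0.18 and -0.11, with adjusted p from 0.0932 to 0.711.

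By annotation term, 6 of the 14 cell cycle genes rose and 0 fell, 3 of the 21 cell division genes rose and 4 fell, and 3 of the 8 mitotic cell cycle genes rose and 3 fell, beside 33.8% and 19.4% of the table. The difference between the terms was not tested, since they share genes and the counts are small. The genes that rose were expressed at a lower level than those that fell, with a median of 21.5 TPM against 130 TPM, and the 20 without a call had a median of 70.5 TPM. The same order held in the rest of the table, with medians of 27.6, 98.5 and 79.4 TPM. Median transcript length was 4599 bases in the genes that rose, 4103 bases in those that fell and 2837 bases in the others. In the rest of the table these medians were 4018, 2037 and 2572 bases, so the genes that fell were the shortest there but not among the 36. Across the 36 genes, Spearman's rank correlation with the log2 fold change was 0.27 for length and -0.28 for level, and 0.36 and -0.20 across the other 1063 genes, where genes share libraries and are not independent replicates. Level and length therefore moved with the direction of change in the whole table, and their part in the changes of single genes was not tested.

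**Figure D4:**
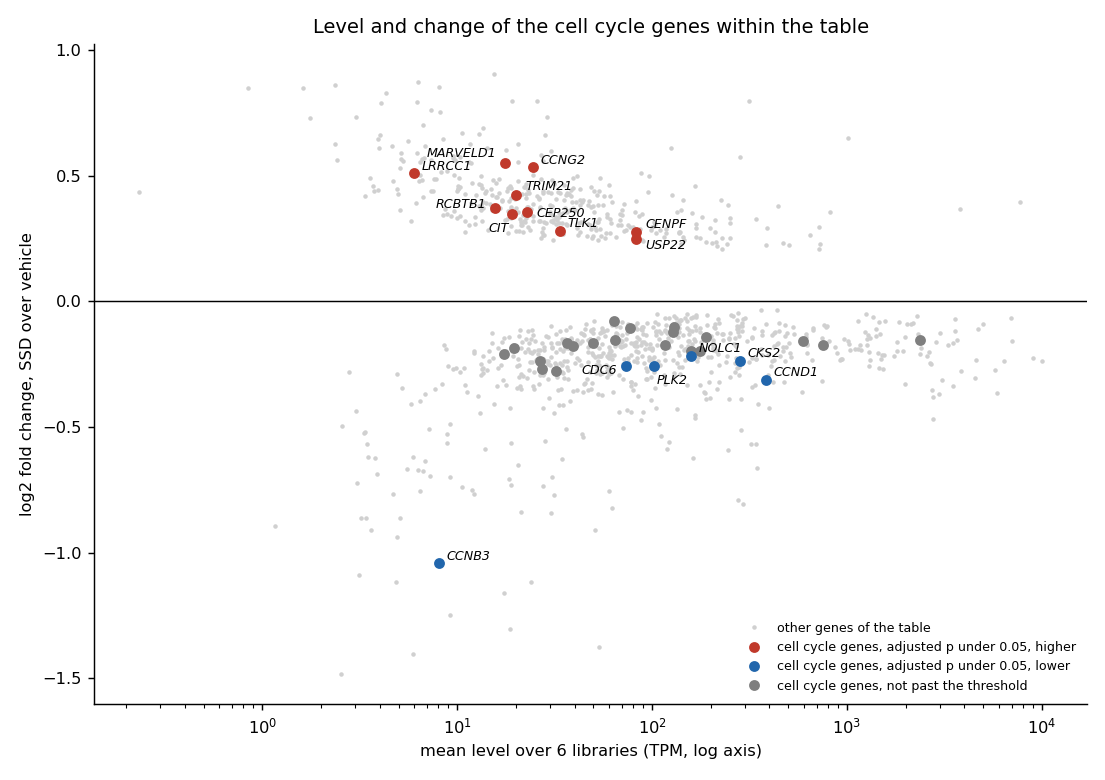
Log2 fold change of SSD over vehicle against the mean TPM over the 6 libraries (log axis) for the 36 cell cycle and cell division genes (large points) and the other 1063 genes of the table (small points). The genes that rose lie at 6.02 to 82.7 TPM and those that fell at 8.08 to 383 TPM. The empty band, from -0.03 to 0.21 on this scale, is where genes were left out of the deposited table.

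Other genes of the same processes came from lists of cell cycle genes, written from textbook knowledge with earlier results of these data known, and from the KEGG cell cycle pathway in the table's annotation. The lists hold 449 names, of which 35 stand in the table. Beside the 36 genes and MYC these sources added 18 genes, of which 5 rose, 3 fell and 10 did not pass the test, shares of 27.8% and 16.7% that are near those of the table (33.8% and 19.4%). TFDP2, a dimer partner of E2F factors, was 0.52 higher on the log2 scale (SE 0.0938, adjusted p = 0.00877), with 19.3, 23.2 and 18.7 TPM under vehicle against 22.3, 25.8 and 38.5 TPM under SSD. BTG1, an antiproliferative protein, was 0.46 higher (SE 0.0764, adjusted p = 0.00651). For both the TPM of the groups overlapped, and SSD replicate 3 was the highest library. TACC2, of the centrosome, and NBN, of the DNA break sensor, rose by 0.38 and 0.33 on the log2 scale (adjusted p = 0.00364 and 0.0115). RPA2, a subunit of the protein that covers single-stranded DNA, stood at 54.0, 55.8 and 57.0 TPM under vehicle against 47.4, 47.5 and 46.4 TPM under SSD and fell by 0.25 (adjusted p = 0.0257), and RPA2 and CDC6 are the 2 genes of the list of 51 replication genes that stand in the table. MYL9 and MYL12A, light chains of the myosin that drives the cleavage furrow among other tasks, fell by 0.45 and 0.18 (adjusted p = 0.00224 and 0.0446). Of 27 proliferation markers 4 stand in the table, CKS2, CENPF, UBE2C and the histone gene H2AZ1, whose log2 fold change of -0.16 did not pass the test (adjusted p = 0.0598). The others were not analysed here.

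Reads of some of these genes may be shared with others. The annotation lists 6 pseudogene copies each for CKS1B and RBBP4, 4 each for UBE2C and RPS3, and 1 each for CCNB3, TLK1, CCNG2 and AHCTF1. Exons of another gene on the same strand overlap those of CIT, RCC1, AHR, RPS3, PRC1 and AHCTF1, and exons on the opposite strand overlap those of CCND1, CEP250, USP22 and CIT among the genes that passed the test. Whether the counting used the strand is not given in the sources used here, so these values are uncertain to that extent.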

How the data were processed

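RNA of 6 AGS libraries (3 vehicle, 3 SSD) was sequenced after poly(A) selection, and the table was made on a commercial cloud platform. The build is GRCh38.p13 in the submitters' processing notes, while the aligner and the counter are not given in the sources used here. The deposited estimated counts, of which 33.5% are not whole, were rounded. The TPM values, as deposited, refer to all genes of a library. Transcript lengths, another deposited column, were used as given. The p-values and adjusted p-values deposited by the authors served only to find the number of genes tested, 11289 (adjusted p times rank over p, within 0.5% of it in 99.0% of genes), and their fold changes were not used.

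Counts were tested with edgeR 4.0.16 (quasi-likelihood test, R 4.3.3) over all 1099 genes, 3 libraries against 3, with Benjamini-Hochberg adjustment over 11289 genes, those outside the table being taken as having larger p. Library sizes came from the median ratio of counts to TPM over 1029 genes with at least 5 TPM in every library, since TMM assumes that most genes are unchanged and the table holds genes chosen for change. TMM values lay 0.07 higher on the log2 scale. Filtering on low counts removed 0 of the 1099 genes, so 36 of 36 cell cycle genes were tested, and the smallest mean in the table was 59 counts. Counting error weighs more on genes of few counts, such as CCNB3 with 57 to 171 counts per library and LRRCC1 with 193 to 267. Dispersion was estimated on these selected genes, whose spread may be smaller than that of all genes, so that p-values may be too small. This was not tested. No libraries were duplicates (chi-square per gene of 4.59 to 15.3 within groups).

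Alternatives were TMM, DESeq2 1.42.0 size factors and Wald test, the table total as library size, limma 3.58.1 on log2 TPM with a pseudocount of 1 or 0.1, a mean of at least 100 counts, no filter, adjustment over the table alone, a replicate block and each library left out. The test was tested on simulated data. Positions and overlaps came from GENCODE release 29, promoters from RefSeq. The genes, roles and lists were chosen with earlier results of these data known. Genes that passed the test, the 5 lowest and 5 highest fold changes and the 3 most abundant genes are given in full, the others by range. Of the 18 other cell cycle genes, those that passed are named except 1 that is not reported here, and the marker genes and H2AZ1 besides. MYC and PIM1, left out by the choice of genes, are not described.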

Additional observations from a re-analysis of the deposited data

How the results depend on the processing

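Of the 16 calls, those of MARVELD1, CEP250 and CCND1 were kept in all 16 alternatives, and AHCTF1, not called, was the only 1 of the 36 genes whose estimate changed sign, to 0.0127 with DESeq2's size factors and with its Wald test. The table counted 371 genes higher and 213 lower. The cell cycle genes counted 10 higher and 6 lower, with a median of -0.16. Scaling moved the falls: 87, 86 and 126 genes of the table and 3, 2 and 4 of the cell cycle genes were lower with TMM, DESeq2 size factors and the table total, and the median was -0.088, -0.0687 and -0.107. The Wald test called 113 and 3 lower (median -0.0688). Limma on log2(TPM + 1) called 114 and 3 higher and 75 and 1 lower, and on log2(TPM + 0.1) 115 and 3 higher and 73 and 1 lower. Adjustment over the table alone called 579 and 24 lower. With 1 library left out, 171 to 382 genes of the table were higher and 78 to 284 lower, 4 to 10 cell cycle genes were higher and 2 to 9 lower, and the median lay between -0.17 and -0.14. With the replicate number as a block 186 and 5 were higher and 93 and 3 lower. Same-numbered libraries did not deviate together (r of -0.24, -0.01 and -0.04), and no vehicle library correlated best with the SSD library of its own number. Pairing by number was thus not seen, but 3 libraries a group are too few to exclude it. The cause of these moves was not tested.

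With 3 libraries a group, the called cell cycle genes nearest to 0 stood at -0.22 (NOLC1) and 0.25 (USP22) on the log2 scale. Genes outside the deposited table were not analysed here.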
